A study of Homo sapiens with 5 samples.

Results

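The basal ATF3 sites lost after camptothecin were 6726 of the 33571 ATF3 peaks called on chromosomes 1 to 22 and X of untreated HCT116 cells (20%, 95% Wilson interval 19.6 to 20.5%). HCT116 is a human colon cancer cell line. A peak was selected on one measurement, the absence of any base in common with an ATF3 peak called after camptothecin (CPT), and the other 26845 peaks, which shared at least 1 base with such a peak, are called retained. "Lost" therefore means that the caller listed no peak at that place in the treated library, and not that the factor was shown to be gone.

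The basal library (ATF3-Ctrl) came from ATF3-wildtype cells given DMSO, and the treated library (ATF3-CPT) from the same cells given 1.5 μM CPT for 4 h. The ATF3-KO library was made with the same ATF3 antibody from DMSO-treated cells in which ATF3 had been knocked out by AAV-mediated recombination. The p53-KO library was made with a p53 antibody from p53-knockout cells given DMSO, and p53-CPT with that antibody from p53-wildtype cells given CPT. All cells were crosslinked with DSG and then formaldehyde. Each condition had 1 library, so no comparison below has a replicate check, and each test is across peaks and not between cultures. The treated ATF3 library was the deeper of the pair, with 15457013 tags against 12947516, and 12.76% of its tags lay in peaks against 5.6%. Both lists used a minimum of 9 tags. On the scale of tags per 10000000, that is 6.95 normalized tags in ATF3-Ctrl and 5.82 in ATF3-CPT. The lowest listed score, a position-adjusted tag count, was 9 in both. Listed normalized tag counts went lower, to 5.4 in ATF3-Ctrl and 4.5 in ATF3-CPT.

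ATF3 is a stress-induced transcription factor of the basic leucine zipper family. Such proteins bind DNA as pairs, and the partner sets which letters are read: the ATF/CRE core TGACGTCA is typical of ATF and CREB pairs, the AP-1 core (TGACTCA or TGAGTCA) of FOS and JUN pairs, and the composite TGATGCAA of an ATF protein paired with a C/EBP protein. CPT traps topoisomerase I on DNA and so causes DNA damage during replication and transcription. Genes with the composite include many that respond to amino acid shortage or unfolded proteins.

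The letters below are shown because the composite and the AP-1 core divided the lost from the retained sites. All are GRCh37 (hg19), plus strand, 127 bases as the peak list gives them, and capitals mark the composite, AP-1 or ATF/CRE core on either strand. The first 6 are lost sites with a composite, named by nearest gene, and they lie at chr18:57568113-57568239, chr16:81631050-81631176, chr15:67367240-67367366, chr7:145872943-145873069, chr6:43878603-43878729 and chr1:212691901-212692027.
PMAIP1 (promoter region): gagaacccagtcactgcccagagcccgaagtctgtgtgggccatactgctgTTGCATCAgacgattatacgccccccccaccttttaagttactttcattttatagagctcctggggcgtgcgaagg
CMIP (intron): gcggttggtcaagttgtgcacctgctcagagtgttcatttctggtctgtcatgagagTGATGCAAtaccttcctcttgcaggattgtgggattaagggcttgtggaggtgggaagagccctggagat
SMAD3 (intron): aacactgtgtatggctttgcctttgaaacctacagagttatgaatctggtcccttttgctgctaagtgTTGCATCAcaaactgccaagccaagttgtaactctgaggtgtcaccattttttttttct
CNTNAP2 (intron): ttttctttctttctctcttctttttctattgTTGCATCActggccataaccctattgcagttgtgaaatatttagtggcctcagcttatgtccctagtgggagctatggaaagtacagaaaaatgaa
VEGFA (intergenic): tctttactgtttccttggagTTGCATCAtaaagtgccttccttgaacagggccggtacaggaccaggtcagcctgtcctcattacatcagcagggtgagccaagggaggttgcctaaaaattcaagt
ATF3 (intergenic): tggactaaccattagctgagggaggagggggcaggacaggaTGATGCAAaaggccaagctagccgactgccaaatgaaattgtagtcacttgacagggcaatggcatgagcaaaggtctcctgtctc

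The next 2 are lost sites of the rarer kinds, at chr1:46751809-46751935 and chr2:173304186-173304312. The LRRC41 site holds both cores and the ITGA6 site an AP-1 core alone.
LRRC41 (exon): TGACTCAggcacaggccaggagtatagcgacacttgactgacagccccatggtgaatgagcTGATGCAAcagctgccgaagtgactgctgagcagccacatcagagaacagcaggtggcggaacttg
ITGA6 (intron): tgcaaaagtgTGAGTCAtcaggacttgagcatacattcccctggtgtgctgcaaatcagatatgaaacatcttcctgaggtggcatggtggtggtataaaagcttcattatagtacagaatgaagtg

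For comparison, retained sites with an AP-1 core lie at chr2:27233784-27233910 and chr1:151284193-151284319, and retained sites with a composite at chr16:87812837-87812963 and chr1:204476218-204476344. In this order they scored 168, 156, 206 and 184, while the lost sites shown scored 13 to 31. The letters thus set strong retained peaks beside weaker lost ones.
TMEM214 (retained, AP-1): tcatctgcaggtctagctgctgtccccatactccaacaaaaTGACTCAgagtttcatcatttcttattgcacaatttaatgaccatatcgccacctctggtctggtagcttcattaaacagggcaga
PI4KB (retained, AP-1): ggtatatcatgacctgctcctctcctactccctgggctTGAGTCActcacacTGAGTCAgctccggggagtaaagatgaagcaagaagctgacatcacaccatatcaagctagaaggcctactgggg
KLHDC4 (retained, composite): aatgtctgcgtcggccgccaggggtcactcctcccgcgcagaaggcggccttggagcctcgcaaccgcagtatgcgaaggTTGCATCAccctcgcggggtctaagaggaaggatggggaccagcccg
MDM4 (retained, composite): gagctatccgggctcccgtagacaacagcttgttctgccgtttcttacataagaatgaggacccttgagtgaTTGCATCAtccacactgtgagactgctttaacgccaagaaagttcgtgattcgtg

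The lost sites were rich in the ATF-C/EBP composite and poor in the AP-1 core. The composite was present in 2465 lost sites (36.6%, 95% Wilson interval 35.5 to 37.8%) and in 2017 retained sites (7.51%, 7.20 to 7.83%), an odds ratio of 7.12 (Fisher's exact test, two-sided, adjusted over 10 features, p at or below 1e-300, the smallest value written). The AP-1 core was present in 286 lost sites (4.25%, 3.8 to 4.76%) and in 10166 retained sites (37.9%, 37.3 to 38.5%), an odds ratio of 0.0729 with p at the same limit by Fisher's exact test. The ATF/CRE core, the rarest of the 3, was in 16 lost sites (0.238%) and 634 retained sites (2.36%), an odds ratio of 0.0986 (Fisher's exact test, adjusted p = 1.44e-41). In DNA of the same length 1000 bases to either side of the peaks, the composite was present in 0.439% of windows beside lost sites and 0.298% beside retained ones, and the AP-1 core in 1.87% and 2.04%.

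**Figure D1:**
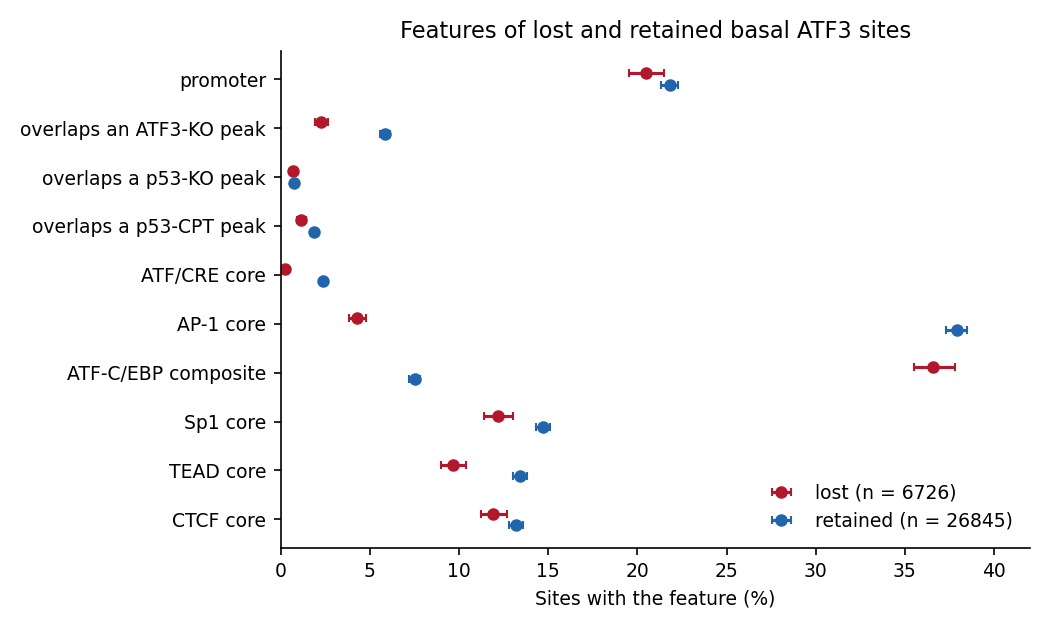
Share of sites with each feature (x axis, percent) among lost (red, n = 6726) and retained (blue, n = 26845) basal ATF3 sites, with 95% Wilson intervals for counting error only. The composite stands at 36.6% of lost against 7.51% of retained sites, and the AP-1 core at 4.25% against 37.9%.

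Read the other way, 2424 of the 4159 basal peaks with a composite and neither other core were lost (58.3%, 95% Wilson interval 56.8 to 59.8%). Of the 10092 peaks with an AP-1 core alone, 245 were lost (2.43%, 2.15 to 2.75%). The 321 peaks that held both a composite and an AP-1 core fell between these classes, with 41 lost (12.8%, 9.56 to 16.9%). Of the 609 peaks with an ATF/CRE core alone, 16 were lost (2.63%, 1.62 to 4.22%). The 18349 peaks with none of the 3 cores lost 4000 (21.8%), close to the 20% of all basal peaks, and these made up 59.5% of the lost sites and 53.5% of the retained ones.

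The lost sites were mostly weak in the basal library. Their score, the caller's position-adjusted tag count, had a median of 10 (quartiles 9 and 13) against 15 (11 and 23) for retained sites, and 51.4% of lost sites scored 9 or 10 against 21.2% of retained ones. The median normalized tag count was 7.7 against 11.6, and the median fold over the local region 11 against 14.4. The focus ratio, the share of a peak's tags that lie where its shape predicts, had a median of 0.8 in both. These measures come from the contrast that chose the sites and are given as description. The share of basal peaks lost went from 41% at score 9 to 2.11% at 41 or more.

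The classes of core differed at the same score. At score 9, 701 of 811 composite-only peaks were lost (86.4%, 95% Wilson interval 83.9 to 88.6%), against 63 of 1112 AP-1-only peaks (5.67%, 4.45 to 7.18%). At scores of 15 to 17 the shares were 46.4% (41.7 to 51.1%) and 1.41% (0.902 to 2.19%), and at 21 to 30 they were 13.5% (10.3 to 17.4%) and 0.947% (0.584 to 1.53%). Above a score of 30 the intervals of these classes met: at 31 to 40, 5 of 142 composite-only peaks (3.52%, 1.51 to 7.98%) and 8 of 655 AP-1-only peaks (1.22%, 0.620 to 2.39%) were lost. Over score strata the Mantel-Haenszel odds ratio was 9.74 for the composite (95% interval 8.98 to 10.6) and 0.0798 for the AP-1 core (0.0705 to 0.0902). Among basal peaks of score 20 or more the odds ratios were 2.42 and 0.175, and with lost sites at least 1000 bp from every ATF3-CPT peak the odds ratio of the composite was 13.4.

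**Figure D2:**
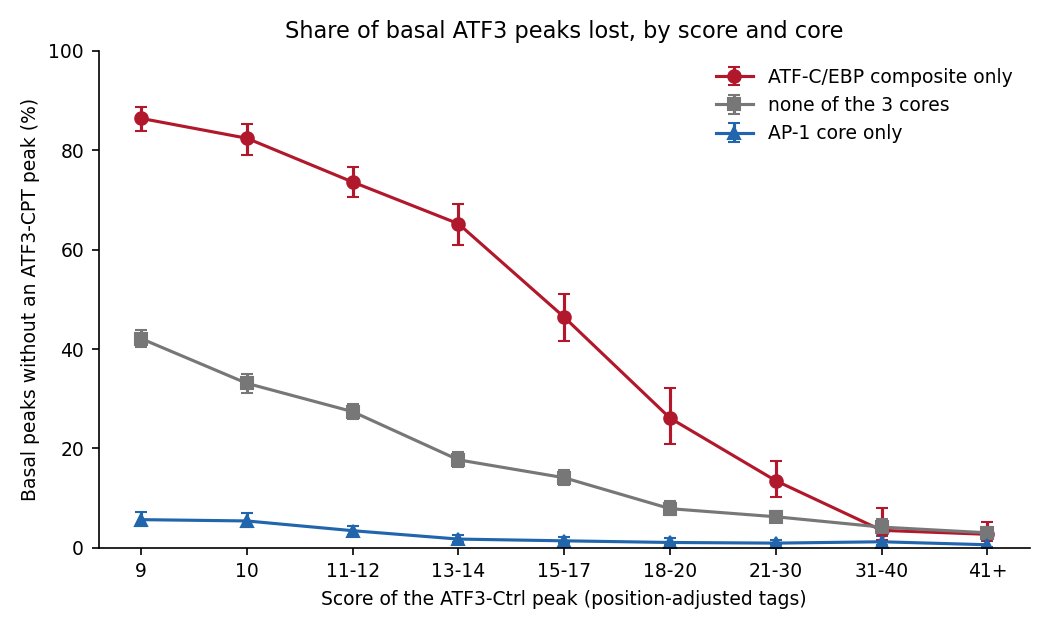
Share of basal peaks lost (y axis, percent) by the score of the basal peak (x axis), for peaks with only the composite (red circles), none of the 3 cores (grey squares) and only the AP-1 core (blue triangles), with 95% Wilson intervals. Composite-only peaks run from 86.4% at score 9 to 2.72% at 41 or more, and AP-1-only peaks stay at or below 5.67%.

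The same order of cores was seen in the tag counts of sites that were retained, which are a description since the treated library chose them. Retained composite-only sites had a median of 14.7 normalized tags in ATF3-Ctrl and 10.4 in ATF3-CPT, and the median of their log2 ratios of ATF3-CPT over ATF3-Ctrl was -0.40 (quartiles -0.77 and -0.02), with 75.6% of the 1735 sites lower after CPT. Retained AP-1-only sites had medians of 11.6 and 31.1 normalized tags, a median log2 ratio of 1.29 (0.88 and 1.64), and 2.30% of 9847 sites lower after CPT. The 280 retained sites with both cores had a median log2 ratio of 0.19. Normalization to total tags does not remove the difference in the share of tags in peaks between the libraries. Among the 43282 ATF3-CPT peaks that overlapped no basal peak, 1.13% held the composite and 41.3% the AP-1 core.

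**Figure D3:**
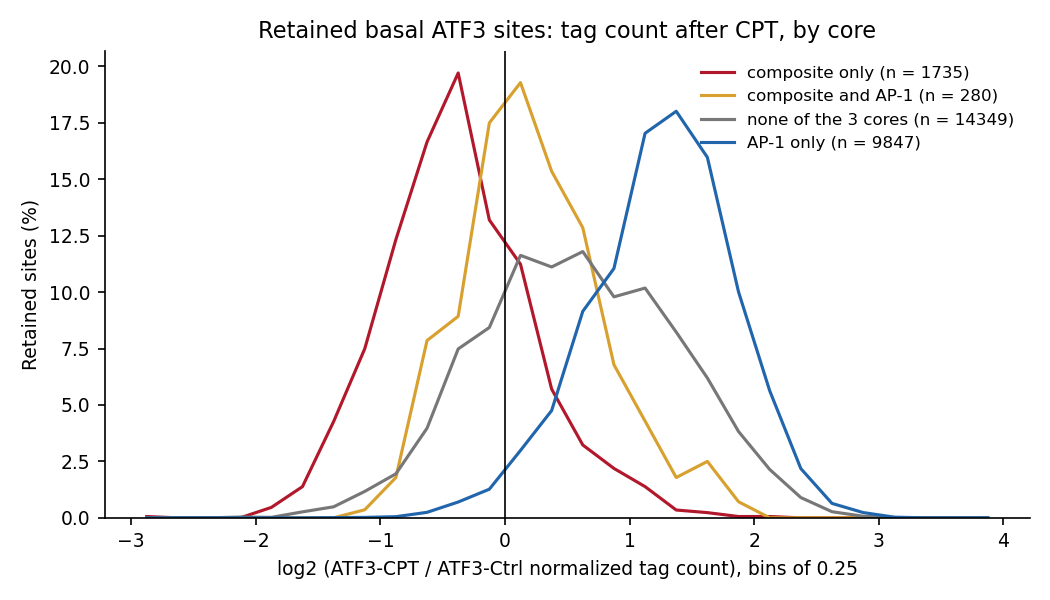
Distribution of the log2 ratio of normalized tag counts, ATF3-CPT over ATF3-Ctrl (x axis), over retained basal sites (y axis, percent of each class), by the cores in the basal peak. The medians are -0.40 for composite-only sites, 0.19 for sites with both cores and 1.29 for AP-1-only sites.

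Where a composite was present it lay near the middle of the peak. Its median distance from the peak centre was 11.5 bp over the 2465 lost sites and 9.5 bp over the 2017 retained ones, and 74.8% and 78.7% of them lay within 20 bp. The AP-1 core was less central, with medians of 21 bp over 286 lost sites and 17 bp over 10166 retained ones. Of the lost sites with an AP-1 core, 49.0% had it within 20 bp of the centre, against 58.8% of the retained ones.

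**Figure D4:**
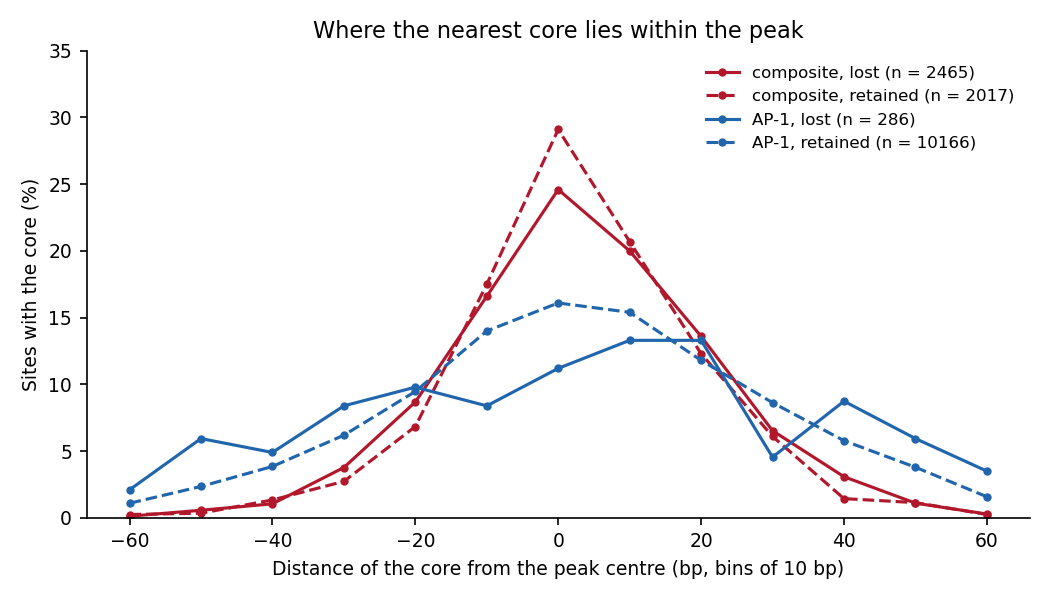
Distance of the nearest core from the peak centre (x axis, bp, plus strand to the right) in bins of 10 bp, as a percentage of the sites with that core (y axis), for lost (solid) and retained (dashed) sites. The composite (red) is concentrated at the centre in both sets, while the AP-1 core (blue) is spread more widely.

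The composite was often followed by a T. Among lost sites, 1715 held TGATGCAAT (25.5%), 452 TGATGCAAC (6.72%), 256 TGATGCAAG (3.81%) and 53 TGATGCAAA (0.788%). The shares lost of all basal peaks with these words were 59.1%, 51.1%, 46.7% and 30.5%. Related words were counted after the composite had been seen to lead: among the lost sites without a composite, TGATGAAA was in 8.61%, TGACGCAA in 5.47% and TGATGTAA in 4.06%, against 3.58%, 1.47% and 2.23% of retained sites without one. These 3 were picked as the words with the largest excess in lost sites among all words 1 letter from the composite. Some other such words were rarer in lost than in retained sites. The composite or 1 of these 3 words was in 48.1% of lost and 14.2% of retained sites, a contrast partly set by that choice.

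Some of the composites shared their peak with a word that is common in the Alu repeat; no repeat annotation was used. The Alu word ACTCCAGCC, also chosen after the values were seen, was in 500 lost sites (7.43%) and 444 retained sites (1.65%), and in 15.3% of the lost and 8.53% of the retained sites with a composite. Composite peaks with the Alu word were lost in 68.7% of cases, composite peaks without it in 53.1%, and peaks with the Alu word but no composite in 31.1%. Without all peaks that hold the Alu word, the odds ratio of the composite was 6.72.

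The other factors tested gave smaller differences. The TEAD core (GGAATG) was in 9.68% of lost and 13.4% of retained sites (odds ratio 0.692, Fisher's exact test, adjusted p = 6.29e-17). The Sp1 core (GGGCGG) was in 12.2% and 14.7% (odds ratio 0.805, Fisher's exact test, adjusted p = 1.43e-07). The CTCF core, searched as AGAGGGC with its close form AGATGGC, and as AGGGGGC with its close form AGGTGGC, was in 11.9% and 13.2% (odds ratio 0.892, Fisher's exact test, adjusted p = 0.00806). In the windows 1000 bases away, beside lost sites, these words were in 8.24%, 4.87% and 7.30%. A CTCF word that ends in GGGC can run into the Sp1 core on the same strand, so these counts can share letters.

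The lost sites lay at widely varying distances from the treated library's peaks, and a set cut of 1000 bp is used to divide them. The median gap to the nearest ATF3-CPT peak was 2904 bp (quartiles 285 and 14257 bp). Of the 6726 sites, 871 lay under 100 bp from an ATF3-CPT peak, 714 at 100 to under 250 bp, 926 at 250 to under 1000 bp, 2118 at 1 to 10 kb, 1863 at 10 to 100 kb and 234 farther away. Thus 4215 sites (62.7%) lay at least 1000 bp from every ATF3-CPT peak, and the other 2511 had such a peak nearby. The composite was in 6.08% of the nearest class, 18.6% at 250 to under 1000 bp, 45.3% at 1 to 10 kb and 59.4% at 10 to 100 kb. Promoter sites were those centred within 2 kb of the outermost start site of a protein-coding gene. They went from 36.6% of the nearest class to 6.44% at 10 to 100 kb, and the AP-1 core from 10.1% to 3.17%.

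**Figure D5:**
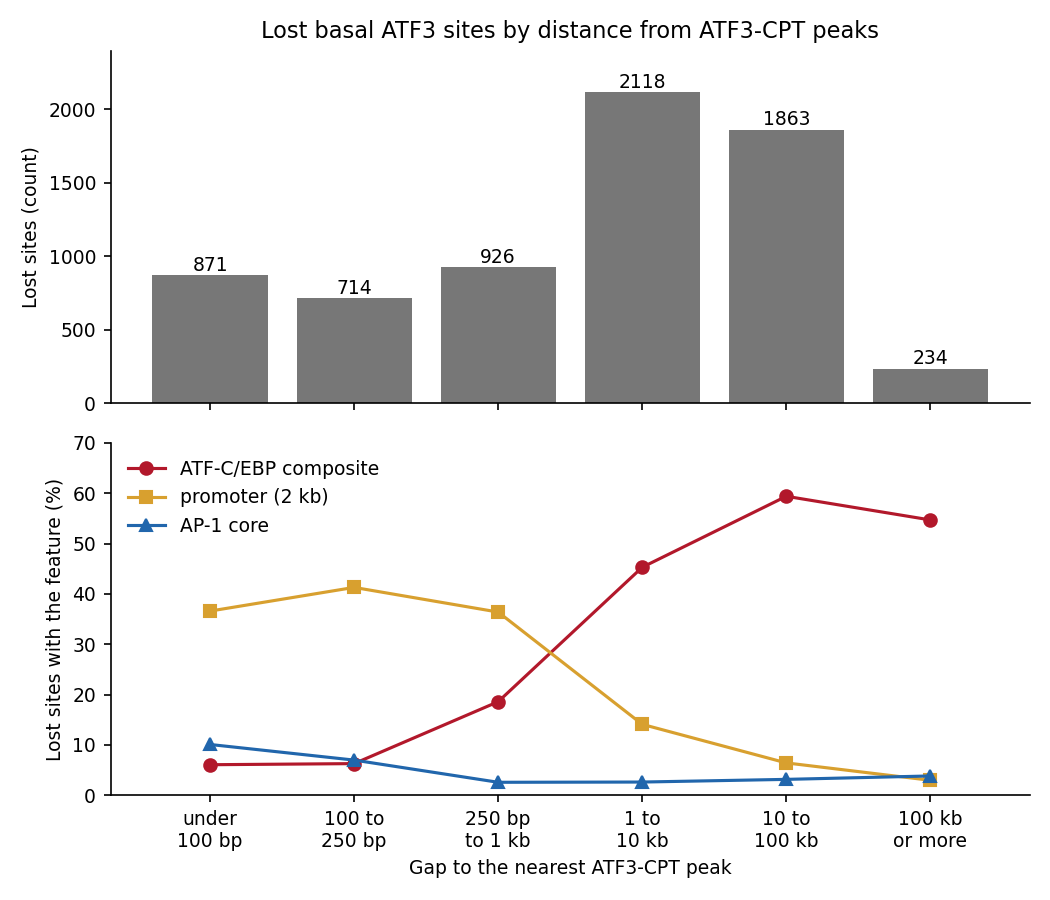
Lost sites by their gap to the nearest ATF3-CPT peak (x axis), as counts (upper panel) and as the share with a composite, in a promoter or with an AP-1 core (lower panel, percent). The 871 nearest sites held the composite in 6.08% and lay in promoters in 36.6%, while the 1863 sites at 10 to 100 kb had 59.4% and 6.44%.

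In the nearest class, 98.4% of the nearest ATF3-CPT peaks matched no other basal peak. The caller's minimum distance between basal peaks was 252 bp, which left little room for another one, so this share is partly set by the caller. These places carried a peak in both libraries at shifted positions. The nearest ATF3-CPT peak had a median score of 21 there, against 12 for the basal site. At the edge of the rule, 16 lost sites touched an ATF3-CPT peak with a gap of 0 bp and 153 had a gap of at most 10 bp, while 20 retained sites shared 1 bp and 156 shared at most 11 bp. A lost site in an intron of SMAD7, an inhibitor of TGF-beta signalling, scored 24 and touched an ATF3-CPT peak of score 55. A retained intergenic site near KSR2 scored 32 and shared 1 bp with an ATF3-CPT peak of score 53.

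Promoters held 1377 lost sites (20.5%, 95% Wilson interval 19.5 to 21.5%) and 5862 retained sites (21.8%, 21.3 to 22.3%), an odds ratio of 0.921 (Fisher's exact test, adjusted p = 0.0165). This direction did not hold under every setting: the odds ratio was 0.402 when lost sites had to lie 1000 bp from every ATF3-CPT peak, 1.07 (Fisher's exact test, p = 0.0484) without peaks that overlapped ATF3-KO peaks, and 1.46 (Fisher's exact test, p = 7.50e-45) when only ATF3-CPT peaks of score 20 or more counted. Introns held 33.8% of the lost and 37.1% of the retained sites, exons 5.25% and 4.50%, and intergenic DNA 40.5% and 36.6%. Composite sites were mainly distal in both sets: of the lost ones 46.8% were intergenic, 44.9% in introns, 4.02% in exons and 4.22% in promoters, and of the retained ones 45.2%, 43.7%, 3.17% and 7.88%. The lost composite sites had a median distance to a start site of 50123 bp against 29378 bp for all lost sites. Within 200 bp of a start site 14.2% of basal peaks were lost, and 25.5% beyond that to 1000 bp. Length of the host gene made little difference, with 18.3% of peaks lost in introns of genes up to 30 kb and 20% in genes over 300 kb. Chromosomes ranged from 17.0% to 21.6%.

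Few lost sites overlapped peaks of the knockout libraries. An ATF3-KO peak, which the antibody gave without ATF3, overlapped 152 lost sites (2.26%, 95% Wilson interval 1.93 to 2.64%) and 1566 retained sites (5.83%, 5.56 to 6.12%), an odds ratio of 0.373 (Fisher's exact test, adjusted p = 5.65e-38). Over score strata the Mantel-Haenszel odds ratio was 1.02 (95% interval 0.847 to 1.22), so the call was lost between peaks of like score. None of the 2465 lost sites with a composite overlapped an ATF3-KO peak (0 of 2465, 95% Wilson interval 0 to 0.156%). Of the 4261 lost sites without a composite, 152 did (3.57%). Retained sites with these cores were also nearly free of such peaks, at 6 of 2017 with a composite (0.297%) and 65 of 10166 with an AP-1 core (0.639%), against 10.0% of the 14942 retained sites with neither. Of the 152, 90 lay under 1000 bp from an ATF3-CPT peak and 37 in promoters. The 5 highest-scoring of them scored 235, 65, 50, 50 and 48, all were intergenic, and the ATF3-KO peaks there scored 341, 51, 75, 59 and 18. No library of ATF3-knockout cells given CPT was analysed here.

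Overlap with p53-KO peaks was rare, at 46 lost sites (0.684%) and 197 retained sites (0.734%), an odds ratio of 0.931 (95% interval 0.675 to 1.29, Fisher's exact test, adjusted p = 0.748). Over score strata it was 2.01 (Mantel-Haenszel 95% interval 1.39 to 2.89), and then the sign of the difference turned. Of the 46 sites, 20 also overlapped an ATF3-KO peak and 3 lay in promoters. Peaks of the p53-CPT library overlapped 75 lost sites (1.12%) and 502 retained sites (1.87%), an odds ratio of 0.592 (Fisher's exact test, adjusted p = 1.40e-05), and 0.919 over score strata (Mantel-Haenszel 95% interval 0.711 to 1.19). The p53-KO and p53-CPT libraries held 1984941 and 3169743 tags, so their lists reach less deep than the ATF3 lists. On the chromosomes used, the lists held 7695 and 9013 peaks. Peaks that p53-knockout cells also gave were not removed from the p53-CPT list, so an overlap need not mark p53 binding.

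The strongest lost sites mostly lay near ATF3-CPT peaks. Of the 97 with a score over 30, 86 lay under 1000 bp from an ATF3-CPT peak, and of the other 11, 8 had a fold over the local region under 6, where the caller required 4. The 5 highest scored 235, 182, 155, 154 and 123. All 5 were intergenic, 733379 to 1782032 bp from the nearest start site counted, and none held any of the 3 cores. Other strong lost sites did hold a core, such as 8 composite-only and 4 AP-1-only peaks of score 41 or more. No repeat annotation was used, so whether these places are repeats was not tested. The high scores of these 5 are not read as strong ATF3 binding, which was not tested. The highest, at chr7:61969226-61969352, lay 6 bp from an ATF3-CPT peak of score 198 and overlapped an ATF3-KO peak of score 341 and a p53-KO peak. The sites that scored 182, 155, 154 and 123 overlapped no ATF3-KO peak. Among basal peaks with a score over 30, 20 of 70 with a local fold under 6 were lost (28.6%, 95% Wilson interval 19.3 to 40.1%), against 77 of 3970 with a higher fold (1.94%, 1.55 to 2.42%). The part that the local filter had in these losses was not tested.

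Lost sites at least 1000 bp from every ATF3-CPT peak and free of ATF3-KO peaks numbered 4153, and 52.9% held a composite. Of the 10 highest-scoring, 9 were of that intergenic kind with a local fold under 6. These 9 lay 108326 to 1787113 bp from the nearest start site counted, and whether they are repeats was not tested. The exception was the intron of CMIP, an adaptor protein of T-cell signalling. It scored 31 (95% Poisson interval 21.1 to 44) with 24.7 normalized tags and a local fold of 19.0, and lay 2846 bp from the nearest ATF3-CPT peak. The ATF3-KO and p53-KO lists held no peak there.

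The promoter sites of this class were led by PMAIP1, which encodes the pro-apoptotic BH3-only protein NOXA. This site scored 30 (95% Poisson interval 20.2 to 42.8) with 24.7 normalized tags, 948 bp downstream of the start site, and the nearest ATF3-CPT peak, of score 25, lay 1186 bp away. ZBTB1 followed with a score of 25, 1971 bp upstream. ANXA9, an annexin gene, scored 23 with a composite 717 bp upstream. ARMC3 scored 23 without a composite, 175 bp downstream, and KNSTRN, a kinetochore and spindle gene, scored 22 with a composite 26 bp downstream. Of these 5 promoter sites 3 thus held a composite.

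Some other composite sites with high scores are named here after their values were seen, and all 4 lie in introns. Others of like score did not, such as an intergenic site near AREGB with a score of 29 and an exon site of TFR2, a transferrin receptor gene, with a score of 23. The CNTNAP2 site, in a gene of the neurexin family, scored 29 with 22.4 normalized tags, and the nearest ATF3-CPT peak was 41253 bp away and scored 9. The SMAD3 site, in the gene of a TGF-beta signal transducer, scored 28 with 23.2 normalized tags, 1304 bp from an ATF3-CPT peak of score 72. In PPM1H, a phosphatase gene, the site scored 25, and in FCHSD2 it scored 24 with the nearest ATF3-CPT peak 44484 bp away. These 4 intron sites had a local fold of 11.58 or more.

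Lost sites with an AP-1 core were rarer in this class, at 124 against 2195 with a composite, and both had a median score of 10. They were led by LRRC41 with a score of 22 in an exon, 16961 bp from the nearest ATF3-CPT peak, and by ITGA6, the integrin alpha-6 gene, with a score of 19 in an intron, 1135 bp from a peak of score 47. ACTG1, a cytoplasmic actin gene, and RO60 had sites that scored 16, and these lay 2018 and 1236 bp from peaks of score 14 and 85. The ITGA6, ACTG1 and RO60 sites had local folds of 5.71, 5.77 and 5.62, where the caller required 4. The LRRC41 site had a local fold of 23.18 and also held a composite. The ATF/CRE core was in 4 such sites, near POLR1H, SETD6, FRMPD1 and EGR2, with scores of 10, 10, 9 and 9.

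Sites were assigned to the nearest protein-coding start site, with only the outermost start of each gene counted. Of the 12371 genes with a basal site, 4703 had a lost site, 3191 had one at least 1000 bp from every ATF3-CPT peak, and 1131 had lost sites only. Of those 1131, 985 had a single basal site and 23 had 3 or more. ZNF716 lost all 8 of its sites, none with a composite. FAM161A lost all 5 of its sites, of which 1 lay at least 1000 bp from every ATF3-CPT peak. CCT8L2 lost all 4 of its sites, none with a composite. IMPG1, a retinal matrix gene, and NXPH1, a neurexophilin gene, lost all 4 of theirs, of which 2 and 3 held a composite.

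The 7 gene lists lost close to the share of all basal peaks (20%). The p53 targets lost 13 of 72 sites (18.1%, 95% Wilson interval 10.9 to 28.5%), AP-1 and ATF/CREB factors 16 of 86 (18.6%), and immediate early and MAPK feedback genes 36 of 202 (17.8%). Integrated stress response genes lost 11 of 57 (19.3%), WNT pathway and colon stem genes 35 of 181 (19.3%), and laminin, integrin and adhesion genes 15 of 111 (13.5%, 8.36 to 21.1%). Topoisomerase and DNA damage signalling genes lost 5 of 24 (20.8%).

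Among the sites of these lists that held a composite the shares lost lay farther apart. Integrated stress response genes lost 3 of 16 (18.8%, 95% Wilson interval 6.59 to 43.0%), and these 16 had a median score of 83. Among p53 targets 1 of 9 was lost (11.1%, 1.99 to 43.5%), with a median score of 22. WNT pathway and colon stem genes lost 13 of 21 (61.9%, 40.9 to 79.2%) and immediate early and MAPK feedback genes 16 of 30 (53.3%, 36.1 to 69.8%), both with a median score of 14. AP-1 and ATF/CREB factors lost 5 of 8, laminin, integrin and adhesion genes 7 of 16, and topoisomerase and DNA damage signalling genes 3 of 5. Over all basal peaks with a composite the share lost was 55.0%, with a median score of 12. These differences between lists were not tested.

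Of the 11 lost sites of integrated stress response genes, 3 lay in promoters, 3 in exons, 1 in an intron and 4 in intergenic DNA, and 6 lay at least 1000 bp from every ATF3-CPT peak. The strongest such site of each of 4 genes is given here. The site nearest VEGFA, an angiogenic growth factor gene, scored 16 with 13.9 normalized tags, 140745 bp downstream of the start site and 7233 bp from an ATF3-CPT peak. In ASNS, which encodes asparagine synthetase, a composite in an exon 20097 bp downstream of the start site scored 12, and the nearest ATF3-CPT peak was 19881 bp away. EIF2AK3, the gene of the kinase PERK, had an intron site with a composite that scored 11. DDIT4, an inhibitor of mTOR signalling, had a site without a composite that scored 14, 10228 bp upstream.

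Of the 16 lost sites of AP-1 and ATF/CREB factors, 3 lay in promoters and 8 in intergenic DNA, and 7 lay at least 1000 bp from every ATF3-CPT peak. A lost composite site assigned to ATF3 itself lay 46712 bp upstream of the outermost start of that gene. It scored 13 with 10.0 normalized tags, 4331 bp from an ATF3-CPT peak. An exon of ATF3 held a retained composite site that scored 189 and overlapped an ATF3-CPT peak of score 198. That retained site was assigned to GARIN4, which had the nearest start site counted. The study reported strong binding of ATF3 at its own promoter in untreated cells. Whether this exon site lies at that promoter was not examined, since only the outermost start of ATF3 was counted. FOS had a lost site 11198 bp downstream and CREB1 one 29098 bp upstream, each with a score of 12 and a composite. The site near CREB1 also held the Alu word. MAFF, a small MAF gene, had a site without any of the 3 cores that scored 14, 27815 bp upstream.

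In the immediate early and MAPK feedback list 1 of 36 lost sites lay in a promoter, in the WNT and colon stem list 2 of 35, and in the laminin, integrin and adhesion list 3 of 15. SPRED2, which restrains RAS to MAPK signalling, had a composite site that scored 13, 274353 bp upstream, and it overlapped a p53-KO peak. DUSP4 and DUSP5, phosphatase genes of the MAPK pathway, had composite sites that scored 18 and 11. SOX9, a colon stem cell factor, had 48 basal sites, of which 9 were lost, and the strongest of these far from ATF3-CPT peaks scored 19 with a composite, 35642 bp from the nearest. CD44 had a composite in an intron that scored 14 and held the Alu word. EPCAM, an epithelial adhesion gene, had a composite site that scored 17, 25265 bp upstream, and MMP7, a matrix protease gene, had one that scored 11. RNF43 and AXIN2, inhibitors of WNT signalling, had sites without a composite that scored 14 and 13.

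Among damage genes, CDKN1A, which encodes the cell cycle inhibitor p21, had 8 basal sites of which 3 were lost, and none of its 3 composite sites was among these. Its lost site 13290 bp upstream scored 24 with 20.1 normalized tags, a focus ratio of 0.929 and a local fold of 5.84, and lay 2053 bp from an ATF3-CPT peak of score 10. AEN, a p53-induced nuclease gene, had a promoter site of score 10. TOP1, the gene of the enzyme that CPT traps, had a composite site of score 10, 108349 bp upstream and 59618 bp from the nearest ATF3-CPT peak. TOP2A and CHEK1, the latter a checkpoint kinase gene, each had an intron site with a composite that scored 11. At such scores the Poisson interval was 5.49 to 19.7 tags, which covers counting error only and reaches below the minimum of 9 tags.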

How the data were processed

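Reads were aligned to hg19 with BWA 0.6.1 and peaks were called in each library with HOMER 4.1, per the study's methods, the labels and the file headers. The caller used an FDR of 0.001, a fold of 4 over the local 10 kb, and fixed peak sizes of 126 (ATF3-Ctrl), 124 (ATF3-CPT), 198 (ATF3-KO), 310 (p53-KO) and 318 bp (p53-CPT). The deposited lists give, for each peak, the score (position-adjusted tags), the normalized tag count, a signal scaled by the authors to 10000000 tags, the focus ratio as a fraction, and the fold over the local region as a ratio. Columns of p-values and clonal fold were not used.

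Here coordinates were read as 1-based and closed, so that ATF3-Ctrl peaks span 127 bases. Peaks were compared by at least 1 shared base. Letters came from GRCh37, whose chromosome names and lengths match hg19, and genes from GENCODE release 44 lifted to GRCh37. Only the outermost start site of each gene was used. Peaks at other transcript starts could therefore count as exon or intron and be assigned to another gene. Motif words were searched exactly on both strands. The FASTA used here carries no repeat masking, so the planned masked share was not computed. Features that the rule did not use were compared with Fisher's exact test, two-sided, with Benjamini-Hochberg adjustment over 10 features (scipy 1.17.1), and by Mantel-Haenszel odds ratios over score strata. Shares have 95% Wilson intervals and scores exact Poisson intervals, for counting error only. Overlap and odds ratio code was tested on simulated data. The members, motif words and gene lists were chosen with earlier results of these data known. Sites named are the 10 highest-scoring lost sites at least 1000 bp from every ATF3-CPT peak and outside ATF3-KO peaks, the 5 highest among these in promoters, the 5 highest lost sites of any kind, the 5 highest in ATF3-KO peaks, up to 5 with each core, up to 4 genes of each list, and the sites nearest the rule's edge. Strong composite sites, related words, the Alu word and the retained sites whose letters are shown were chosen after their values were seen. A site that this rule names is not reported here.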

Additional observations from a re-analysis of the deposited data

How the results depend on the processing

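No paired analysis was possible because each condition had 1 library and the labels carry no replicate numbers. The composite (odds ratio 2.42 to 13.4 over 12 alternatives, all added after the data were seen), the AP-1 core (0.0497 to 0.175 over 12, of which 3 were added) and the ATF/CRE core (0.0393 to 0.214 over 9) kept their direction and their side of the threshold under every alternative run.

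The number lost depended on the definition. For the gap settings, here and in the odds ratios above, nearer lost sites were left out of the total and not counted as retained. It was 17.9% (5855) with a gap of at least 100 bp, 4215 (13.6%) with at least 1000 bp, 25.1% (8421) when 0.5 of the length had to be shared, 964 (6.58%) at basal scores of 15 or more, 333 (3.70%) at 20 or more, 13439 (40%) against ATF3-CPT peaks of score 20 or more, and 20.6% (6574) without ATF3-KO peaks. The promoter odds ratio turned to 1.12 with 0.5 of the length shared, 1.46 against ATF3-CPT peaks of score 20 or more and 1.07 without ATF3-KO peaks, and was 0.972 (Fisher's exact test, p = 0.355) with start sites of every gene type. The ATF3-KO odds ratio was 0.742 (Fisher's exact test, p = 0.113) at scores of 20 or more and 1.02 over score strata. The p53-KO odds ratio turned to 1.35 at scores of 15 or more, 1.61 at 20 or more, 1.28 against ATF3-CPT peaks of score 20 or more, 1.27 without ATF3-KO peaks and 2.01 over score strata. The cause of these changes was not tested. A basal site near 9 tags may fall on either side of the threshold in a second library. The part that depth had in the losses was not tested.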
